A study of Rattus norvegicus with 10 samples.

Results

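The AMPA and kainate receptor subunits are 9 genes, Gria1 to Gria4 for the AMPA receptor and Grik1 to Grik5 for the kainate receptor. Their messenger RNA was followed in rat hippocampus after traumatic brain injury (TBI). The members were the records in a table of read counts whose RefSeq RNA accession belongs to one of these symbols. This gave 16 of 32041 RNA records, and 9 of the 16610 gene symbols that the table holds. Gria1, Grik2, Grik4 and Grik5 had a single record each and the other 5 genes had 2 or 3. For each gene the record with the highest mean count is called the main row, and the others are given as isoform rows.

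The animals were adult male Sprague-Dawley rats. In the TBI group (n = 5) a lateral fluid percussion pulse with a mean impact of 3.32 atm was delivered through a craniectomy over the left parietal lobe. The sham group (n = 5) had the same anaesthesia and surgery with no pulse. The left hippocampus was taken 3 months later, and the piece with CA3 and dentate gyrus was used, although the tissue label reads dorsal hippocampus. According to the methods of the study the TBI rats had no EEG recording and showed no seizures related to handling. It is therefore not known whether any of them had unobserved seizures. The methods cite earlier data in which only a small part of such rats had epilepsy at this time. The comparison asks whether subunit expression differs between injured and sham-operated hippocampus at this late time.

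AMPA and kainate receptors are glutamate-gated ion channels, each built from 4 subunits. AMPA receptors carry most fast excitatory current in the brain, and the subunit encoded by Gria2 makes them nearly impermeable to calcium once its transcript has been edited. Kainate receptors act on both sides of the synapse. Grik1, Grik2 and Grik3 encode subunits that can form channels by themselves, and Grik4 and Grik5 encode subunits that need one of those partners. In the hippocampus kainate receptors are best known at the mossy fibre synapses that dentate granule cells make on CA3 pyramidal cells, and Grik1 is known for its expression in GABAergic interneurons.

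Each library gave between 23425817 and 31671838 counts over all RNA records. Ribosomal RNA took 58.5% to 59.0% of the counts in sham replicates 4 and 5 and 12.5% to 26.2% in the other 8 libraries, and those 2 sham rats had the lowest raw counts of the 10 for each of the 9 genes. Some markers of the dissected regions were well counted and others were sparse. Of the 8 CA3 genes listed 6 were tested. Their means over all rats ran from 0.207 CPM (read counts scaled to a common library size) for Coch to 251 CPM for Cpne4. Of the 8 dentate granule genes listed 5 were tested, with means from 0.182 CPM for Lct to 89.6 CPM for C1ql2. The summed level of the CA1 list, a neighbouring field, was 72.3 to 153 CPM in sham rats and 55.9 to 509 CPM in TBI rats. In bulk tissue, fewer cells of a type and less RNA per cell cannot be told apart.

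All levels below are CPM on library sizes adjusted by the trimmed mean of M values (TMM). Lengths of the records were not available here, so levels of different genes cannot be ranked against each other. By the quasi-likelihood test of edgeR with Benjamini-Hochberg adjustment no subunit differed between the groups at 0.05, nor did any by DESeq2 or limma. Of the 9 main rows 0 passed, against 0% of the 22431 rows tested. With the limit used in the study, an unadjusted p under 0.001, 0 of 9 main rows passed by this test, against 0.196% of all rows. An isoform row of Grik1, described below, passed that limit by the exact test of edgeR and by voom of limma, where the share of all rows was not counted. The methods of the study do not name the quasi-likelihood test and give fewer sham rats, so these counts do not repeat its calls. At an unadjusted p under 0.05 there was 1 of 9, Grik2, and it was lower in TBI, against 7.89% of all rows in either direction, 3.00% lower and 4.89% higher. The smallest adjusted p of any row was 0.477. The log2 change was below 0 in 8 of the 9 main rows and in 52.2% of all rows, and the median was -0.07 over the 9 and -0.01 over all rows.

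Among the AMPA receptor genes, Gria1, whose subunit is abundant in hippocampal principal cells, was at 274, 314, 286, 286 and 304 CPM in sham replicates 1 to 5 and at 277, 314, 304, 265 and 233 CPM in TBI replicates 1 to 5. Its mean ± SD was 293 ± 15.97 CPM in the sham and 278 ± 32.3 CPM in the TBI group (n = 5 each), and 3 of the 5 TBI rats lay within the sham range. Gria1 thus had a log2 change of -0.07 ± 0.0858 (SE), and its 95% confidence interval, as a percent change, ran from -16.1% to 7.65%. TBI replicate 5 had the lowest level of the 10 rats, and without it the log2 change was -0.0154.

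Gria2 was at 123, 134, 130, 122 and 168 CPM in the sham rats and at 133, 117, 132, 132 and 130 CPM in the TBI rats. Apart from sham replicate 5, which was the highest, and TBI replicate 2, which was the lowest, the rats stood between 122 and 134 CPM. The log2 change of Gria2 was -0.07 ± 0.0884 (SE). Without sham replicate 5 it was 0.0152, so the sign of this small value rested on 1 rat.

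Gria3, which in the hippocampus is found mainly together with the Gria2 subunit, was at 35.0, 40.4, 41.4, 37.0 and 48.0 CPM in sham rats and at 43.2, 37.6, 38.5, 37.9 and 38.01 CPM in TBI rats. Sham replicate 5 was again the highest rat, and each of the TBI rats lay within the sham range. Gria3 had a log2 change of -0.05 ± 0.0858 (SE), or 0.0171 without sham replicate 5.

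Gria4, known for fast AMPA receptors of interneurons, was the least counted gene of the AMPA group, with 275 to 627 reads per library over its 3 rows. Its main row was at 6.18, 6.57, 6.98, 6.66 and 7.37 CPM in sham rats and at 6.52, 5.77, 6.45, 4.58 and 5.83 CPM in TBI rats. TBI replicates 2, 4 and 5 were below each sham rat and the other 2 were inside the sham range. This gave a log2 change of -0.21 ± 0.111 (SE, quasi-likelihood test of edgeR, unadjusted p = 0.0794, adjusted p = 0.684). The sum of its 3 rows gave a log2 change of -0.22, and this was -0.13 without TBI replicate 4 and -0.14 without the 2 sham rats rich in ribosomal RNA.

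**Figure D1:**
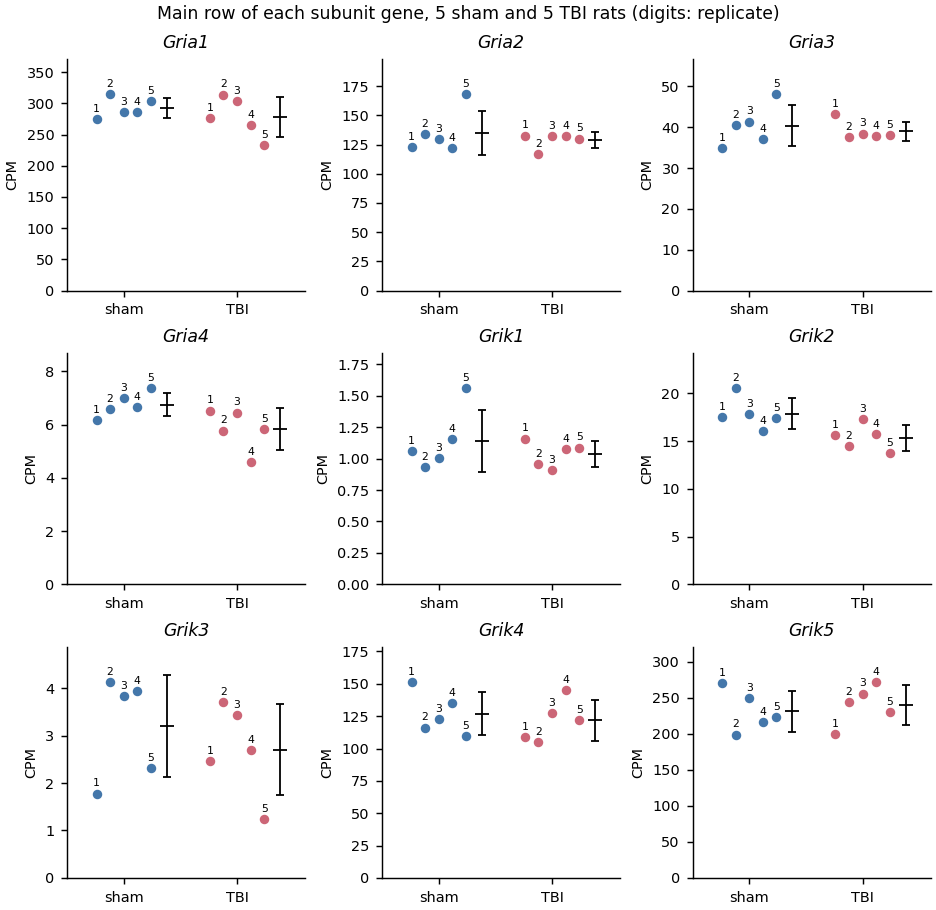
Level of the main row of each subunit gene in CPM (vertical axes, starting at 0) in 5 sham and 5 TBI rats. Each point is 1 rat with its replicate number, and the bar beside each group is the mean with its SD. Sham and TBI overlapped in each of the 9 panels, and Grik2 was the gene in which 4 of the 5 TBI rats lay below the lowest sham rat.

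Among the kainate receptor genes, Grik2, the main channel-forming subunit at mossy fibre synapses, stood furthest from 0 relative to its error among the 9 main rows. It was at 17.5, 20.6, 17.8, 16.04 and 17.4 CPM in sham rats and at 15.7, 14.4, 17.3, 15.7 and 13.7 CPM in TBI rats. In 4 of the 5 TBI rats the level was below that of the lowest sham rat, and TBI replicate 3 lay inside the sham range. Its mean ± SD was 17.9 ± 1.65 CPM in the sham and 15.4 ± 1.36 CPM in the TBI group (n = 5 each). The log2 change was -0.22 ± 0.0908 (SE, quasi-likelihood test of edgeR, unadjusted p = 0.0247, adjusted p = 0.577), so it did not pass the correction. It was -0.28 with the ribosomal RNA share as a covariate and -0.27 without the 2 sham rats rich in ribosomal RNA. Library totals outside ribosomal RNA, which also shift the median of all rows, gave -0.0795 (quasi-likelihood test of edgeR, unadjusted p = 0.562). Without sham replicate 2, TBI replicate 2 or TBI replicate 5 the unadjusted p was 0.0901, 0.0569 or 0.0649.

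Grik1 was sparse, with 56 to 111 reads per library over 3 rows, and its rows did not give the same picture. The main row, NM_001111114, was at 1.06, 0.934, 1.01, 1.16 and 1.56 CPM in sham rats and at 1.16, 0.958, 0.909, 1.08 and 1.09 CPM in TBI rats. The groups overlapped, with a log2 change of -0.11 ± 0.192 (SE). The row NM_001111117 was at 0.999, 1.22, 1.01, 1.22 and 1.25 CPM in sham rats and at 0.783, 0.851, 0.557, 0.569 and 0.518 CPM in TBI rats. Here each TBI rat was below each sham rat, as in 0.424% of all rows tested. The log2 change of NM_001111117 was -0.77 ± 0.211 (SE, quasi-likelihood test of edgeR, unadjusted p = 0.00169, adjusted p = 0.478). Its unadjusted p was 0.000589 by the exact test of edgeR with robust estimation (adjusted p = 0.152) and 0.000520 by voom (adjusted p = 0.538). By the quasi-likelihood test it was 0.0208 with the ribosomal RNA share as a covariate and 0.0165 with library totals outside ribosomal RNA. The row NM_017241 lay between them, with a log2 change of -0.42 ± 0.219 (SE). Whether the rows differ from each other in their change was not tested. The row NM_001111117 was singled out after its values had been seen.

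Rows of one gene share most of their sequence, and how reads that match several rows were assigned is not given in the sources used here. The sum over the 3 rows of Grik1 was at 3.37, 3.30, 3.25, 3.81 and 3.62 CPM in sham rats and at 2.93, 2.56, 2.20, 2.34 and 2.87 CPM in TBI rats, with no overlap of the groups. With rows summed for each symbol, 0.447% of 21913 features were without overlap and lower in TBI, and 3.01% were lower at an unadjusted p under 0.05. The sum averaged (± SD) 3.47 ± 0.236 CPM in the sham and 2.58 ± 0.320 CPM in the TBI group (n = 5 each). The log2 change of the sum was -0.42 ± 0.130 (SE, quasi-likelihood test of edgeR, unadjusted p = 0.00480, adjusted p = 0.492). It was -0.34 with the ribosomal RNA share as a covariate (unadjusted p of 0.0521) and -0.35 without the 2 sham rats rich in ribosomal RNA (unadjusted p of 0.0324). Under the scalings by total counts outside and including ribosomal RNA, which also shift the median of all rows, it was -0.26 and 0.11.

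**Figure D2:**
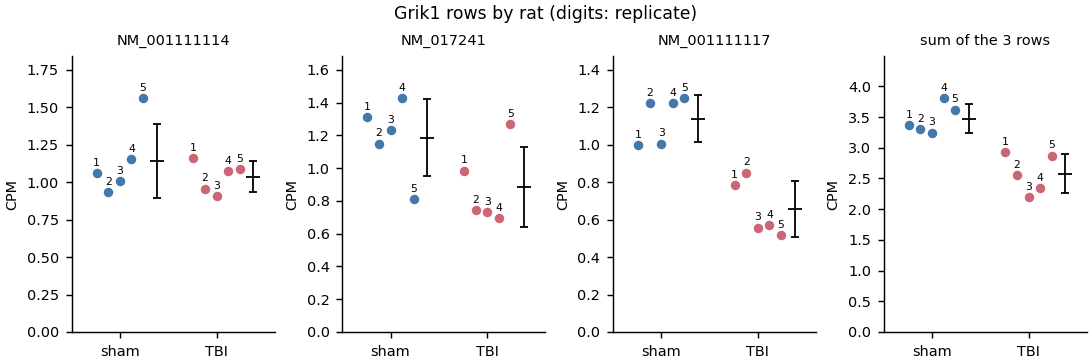
Level in CPM (vertical axes, starting at 0) of the 3 Grik1 rows and of their sum in 5 sham and 5 TBI rats, each point 1 rat with its replicate number and each bar the mean with its SD. In NM_001111117 and in the sum the TBI rats lay below the sham rats, and in the other rows the groups overlapped.

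Grik3, which encodes a channel-forming subunit of low glutamate affinity, varied most among rats of the same group. Its main row was at 1.78, 4.13, 3.83, 3.94 and 2.31 CPM in sham rats and at 2.46, 3.70, 3.43, 2.69 and 1.24 CPM in TBI rats. The SD was 33.6% of the mean in sham rats and 35.6% in TBI rats, against 5.45% to 21.6% for the other 8 genes in sham rats and 5.33% to 13.3% in TBI rats. Its log2 change was -0.24 ± 0.296 (SE), and the 95% confidence interval ran from -45.8% to 32.0%. Without TBI replicate 5 the log2 change was -0.0529, and without sham replicate 1 it was -0.42.

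The partner subunits were counted deeply. Grik4, a gene typical of CA3 pyramidal cells, was at 152, 116, 123, 135 and 109 CPM in sham rats and at 109, 105, 128, 145 and 122 CPM in TBI rats. Its log2 change was -0.06 ± 0.101 (SE), and the interval ran from -17.2% to 11.0%. Grik5, expressed broadly in neurons, was at 271, 199, 249, 216 and 223 CPM in sham rats and at 199.6, 244, 256, 272 and 230.1 CPM in TBI rats. It was the 1 main row with a log2 change above 0, at 0.05 ± 0.0969 (SE), and the interval ran from -9.92% to 19.4%. In Grik5 TBI replicate 4 was just above the sham range, and in Grik4 TBI replicates 1 and 2 were just below it, so the groups of both genes overlapped widely.

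**Figure D3:**
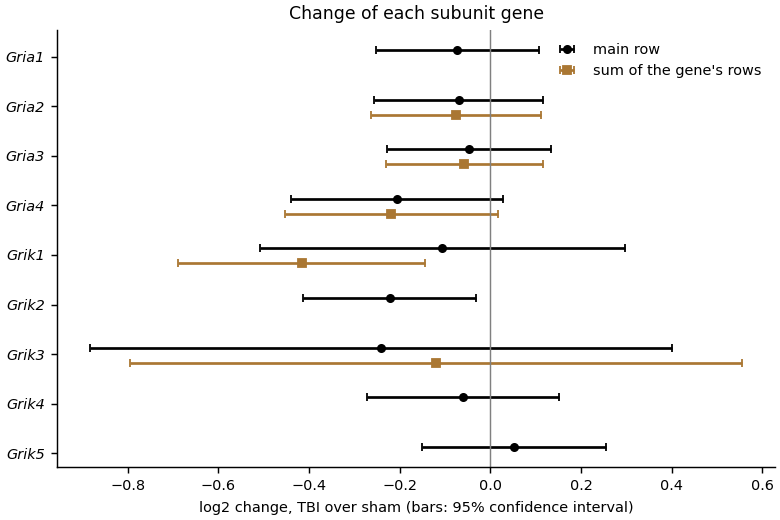
Log2 change of each subunit gene in TBI over sham (horizontal axis), with 95% confidence intervals as bars. Circles are main rows and squares are the sums of the rows of genes with several rows. The intervals of Grik2 and of the Grik1 sum lay below 0, before any correction for multiple tests, and those of Grik3 were the widest.

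The direction of such small values depends on how libraries are scaled. Scaling by total counts, in which ribosomal RNA counts as library size, put the median over all rows at 0.50 and put 0 of the 9 main rows below 0. Scaling by total counts outside ribosomal RNA moved it to 0.14 and left 3 of 9 below 0, Gria4, Grik2 and Grik3. Relative to the median of all rows, 8 of the 9 were lower under either scaling, as with TMM. With the ribosomal RNA share as a covariate 6 of 9 were below 0, and without the 2 sham rats rich in ribosomal RNA 5 of 9 were. On this relative scale the main rows of Gria1, Gria4, Grik2 and Grik3, or their sums in the fit with summed rows, were below 0 in each of the 23 alternative fits. The values ran from -0.11 to -0.00775 for Gria1, from -0.25 to -0.12 for Gria4, from -0.28 to -0.16 for Grik2 and from -0.41 to -0.05 for Grik3. These fits reuse the same rats and are not independent. The isoform row of Grik3, with a log2 change of 0.01, was above the median of all rows with TMM.

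Ratios of the counts of 2 main rows in the same rat are free of library scaling, and transcript length cancels in the difference between the groups, though not in the ratios themselves. The log2 ratio of Gria2 to Gria1 sets the subunit that limits calcium entry beside the other major AMPA subunit of principal cells, and its Gria2 main row holds 49.7% to 52.2% of the counts summed over the rows of that gene. Its mean ± SD was -1.12 ± 0.155 in the sham and -1.11 ± 0.222 in the TBI group (n = 5 each). The difference was 0.02 (two-sided exact permutation p = 0.913, adjusted over the 2 ratios 0.913), and with both Gria2 rows summed it was 0.0129 (two-sided exact permutation p = 0.889). The log2 ratio of Grik5 to Grik2, a partner to a channel-forming subunit, was 3.95, 3.27, 3.81, 3.75 and 3.68 in sham rats and 3.67, 4.08, 3.89, 4.11 and 4.07 in TBI rats. In 3 of the 5 TBI rats it was above each sham rat. The difference was 0.27 (two-sided exact permutation p = 0.0873, adjusted over the 2 ratios 0.175), where no split of these rats can reach a p below 0.00794. Without sham replicate 2, the lowest sham rat, the difference was 0.17, and without TBI replicate 1, the lowest TBI rat, it was 0.34 (two-sided exact permutation p = 0.0317).

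The split of counts between rows of a gene was close to even in the well counted genes. Since the assignment of reads shared by several rows is not known, these shares need not give the proportions of isoforms. The main row of Gria2 held 49.7% to 52.2% of the counts summed over the rows of the gene in the 10 libraries, and that of Gria3 held 51.0% to 52.8%. The isoform rows of these genes accordingly followed the main rows, with log2 changes of -0.08 for Gria2 and -0.07 for Gria3. In Gria4 the main row held 34.3% to 40.2%, and the isoform rows had log2 changes of -0.22 and -0.21. In Grik1 the row NM_001111117, with 18 to 34 reads per library, held 32.8% ± 2.91 (SD) of the summed counts in the sham group. It held 25.5% ± 5.48 (SD) in the TBI group (n = 5 each). In Grik3 the isoform row had a log2 change of 0.01 ± 0.275 (SE), beside -0.24 in the main row.

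Some marker lists held a larger share of genes at an unadjusted p under 0.05 than all rows did, where 4.89% were higher and 3.00% lower. After adjustment 0% of all rows passed 0.05. The lists of neurons in general and of oligodendrocytes had 0 of 10 and 0 of 8 genes at that unadjusted p. The CA3 score differed between the groups by 0.0147, with 1 of its 6 tested genes lower at that unadjusted p and log2 changes on both sides of 0. The CA1 list had log2 changes above 0 in each of its 6 genes, with 3 of the 6 at an unadjusted p under 0.05. Its score was higher in the TBI group by 0.84, though TBI replicate 4 (-1.06) was among the lowest rats. The microglia list had 4 of 10 genes higher at an unadjusted p under 0.05, with a summed level of 199 to 313 CPM in sham rats and 239 to 332 CPM in TBI rats. The astrocyte list had 2 of 7 genes higher, with 1660 to 2502 CPM in sham rats and 1825 to 3376 CPM in TBI rats. The lists of oligodendrocyte precursors and of thalamus and hypothalamus each had 2 of 6 tested genes higher, and that of choroid plexus had 1 of 6. The list score used here is the mean over the genes of a list of log2 CPM, each centred on its mean over all rats. For dentate granule cells, of which 5 of the 8 listed genes were tested, the score was lowest in sham replicate 1 (-0.95) and TBI replicate 5 (-0.42) while the other 8 rats had scores of -0.24 to 0.46. The same rats had the lowest sums of Grik3 rows, 3.31 CPM and 2.54 CPM, while the other rats had 4.78 to 7.58 CPM. Among those others score and level did not run together. TBI replicate 2 had the lowest score (-0.24) with 7.53 CPM, and sham replicate 5 had a score of 0.46 with 5.18 CPM. The summed level of the dentate granule list was 60.3 to 225 CPM in sham rats and 94.5 to 210 CPM in TBI rats.

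The GABAergic list had a log2 change below 0 in each of its 11 genes. At an unadjusted p under 0.05 there were 4 of the 11, among them Gad1, Gad2 and Lhx6, against 3.00% of all rows lower. Its summed level was 404 to 535 CPM in sham rats and 317 to 441 CPM in TBI rats. Its score was from -0.02 to 0.42 in sham rats and from -0.39 to 0.18 in TBI rats. The Grik1 sum and Gria4 had lower means in the TBI group, where 8 of the 9 subunit main rows had a log2 change below 0. TBI replicate 3 had the highest GABAergic score of the TBI rats (0.18) and the lowest Grik1 sum (2.20 CPM). The part of cell type composition in the subunit values was not tested.

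**Figure D4:**
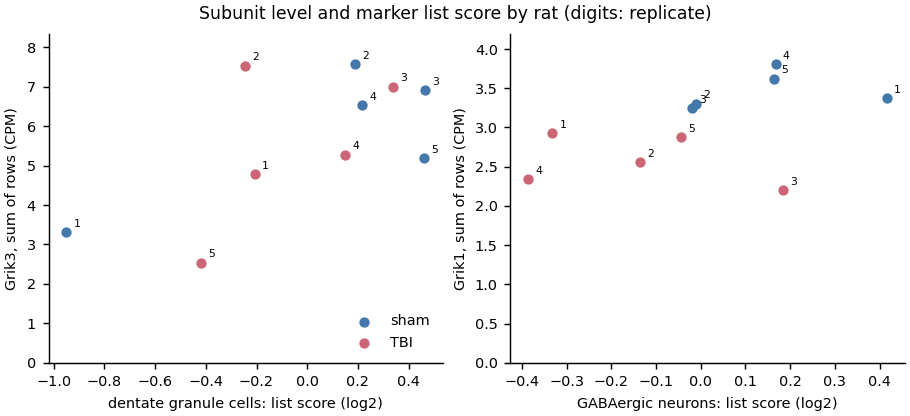
Summed level of Grik3 against the dentate granule list score (left) and of Grik1 against the GABAergic list score (right), in CPM and in log2 units, with 1 point per rat and its replicate number. Sham replicate 1 and TBI replicate 5 were lowest on both axes of the left panel, where TBI replicate 2 had the next lowest score but 7.53 CPM. In the right panel the sham rats stood above the TBI rats at scores that overlap.

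Receptors of both kinds are assembled, carried and held at the synapse by other proteins, and 54 such genes were listed in 7 groups. Of these, 49 matched a tested row. By the same test 0 of the 49 passed at an adjusted p under 0.05, and at an unadjusted p under 0.05 there were 3 (6.12%), 1 higher and 2 lower, which is near the 7.89% of all rows. The log2 change was below 0 in 36 of the 49, with a median of -0.06.

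Of the 6 TARP genes, which encode transmembrane auxiliary subunits of AMPA receptors, 5 had log2 changes above 0. Cacng4 was at 14.9, 13.5, 13.7, 13.5 and 12.3 CPM in sham rats and at 17.6, 16.8, 17.6, 15.1 and 13.4 CPM in TBI rats, and 4 of the 5 TBI rats were above each sham rat. Its log2 change was 0.24 ± 0.0948 (SE, quasi-likelihood test of edgeR, unadjusted p = 0.0208, adjusted p = 0.555). By the same test Cacng4 was at 0.21 with the ribosomal RNA share as a covariate (unadjusted p of 0.105) and at 0.39 with library totals outside ribosomal RNA (unadjusted p of 0.00628). Without the 2 sham rats rich in ribosomal RNA the unadjusted p was 0.0921. Without sham replicate 5, TBI replicate 1 or TBI replicate 3 it was 0.0564, 0.0505 or 0.0608. Cacng8, the TARP most typical of hippocampus, and Cacng2, or stargazin, had log2 changes of 0.11 and 0.21. Without sham replicate 2 these were 0.0512 and 0.11. Cacng2 was at 0.12 without TBI replicate 4 and at 0.30 without TBI replicate 2. Cacng8 was at 0.16 without sham replicate 3, sham replicate 5 or TBI replicate 1. Among other AMPA auxiliary genes, Cnih2, a cornichon protein, had a log2 change of 0.19 and Olfm1, a secreted olfactomedin, one of -0.11, and 0 of the 6 tested reached an unadjusted p under 0.05.

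The trafficking and anchoring group held both genes with lower values. Sdcbp, or syntenin, a PDZ protein that binds receptor tails, was at 153, 192, 157, 179 and 169.9 CPM in sham rats and at 146, 137, 156, 149.7 and 144 CPM in TBI rats, and 4 of the 5 TBI rats were below each sham rat. Its log2 change was -0.22 ± 0.0780 (SE, quasi-likelihood test of edgeR, unadjusted p = 0.0121, adjusted p = 0.511), and with library totals outside ribosomal RNA it was -0.0618. Grip1, a PDZ scaffold that binds the AMPA subunits of Gria2 and Gria3, had a log2 change of -0.20 ± 0.0943 (SE, quasi-likelihood test of edgeR, unadjusted p = 0.0459, adjusted p = 0.626). With the ribosomal RNA share as a covariate it was -0.10 (unadjusted p of 0.399), and with library totals outside ribosomal RNA -0.0479 (unadjusted p of 0.725). The most counted genes of this group, Dlg4 (PSD-95) and Nsf, had log2 changes of -0.09 and -0.12.

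In the remaining groups 0 genes reached an unadjusted p under 0.05. The kainate auxiliary genes Neto1 and Neto2 had log2 changes of -0.06 and -0.00144, and the delta receptor gene Grid1 had -0.12. Porcn and Cpt1c, which act on AMPA receptors in the endoplasmic reticulum, had -0.00231 and 0.01. Adarb1, which edits the Gria2 transcript, had a log2 change of -0.06 ± 0.0722 (SE) and is named here after its value was seen. The secreted or shed pentraxins Nptx1 and Nptxr, which cluster AMPA receptors from outside, had -0.06 and -0.03.

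**Figure D5:**
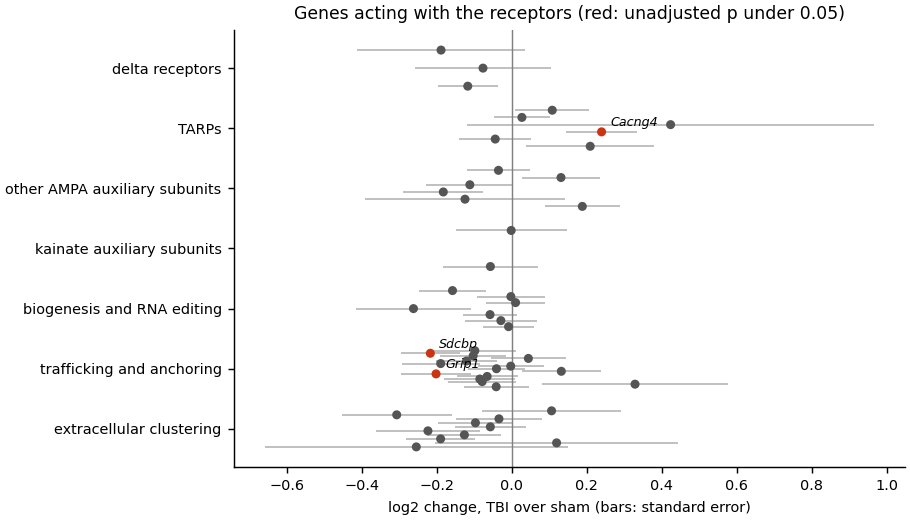
Log2 change in TBI over sham (horizontal axis) of the 49 tested genes that act with the receptors, by group, each point 1 gene with its standard error as a bar. Red points are the 3 genes with an unadjusted p under 0.05, Cacng4 at 0.24, Grip1 at -0.20 and Sdcbp at -0.22, and the other genes are grey.

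For each subunit gene the genes with the most similar pattern over the 10 libraries were found by Pearson correlation of log2 CPM after each group was centred on its mean. These are the highest of many correlations over few libraries, which share their depth and ribosomal share, and they are given as a description. The closest genes were Ubash3b for Gria1 (r = 0.980), Tra2a for Gria2 (r = 0.959), Scaf11 for Gria3 (r = 0.983) and Rcbtb2 for Gria4 (r = 0.897). For the kainate genes they were Tfg for Grik1 (r = 0.921), Ddx21 for Grik2 (r = 0.918), Atp2b4 for Grik3 (r = 0.947), Pfkp for Grik4 (r = 0.961) and Pacsin1 for Grik5 (r = 0.978). The next closest were Zfp592, Klf9, Kmt5b and Mboat2 for the AMPA genes in the same order and Zc3h13, Igf2r, Agap1, Gjd2 and Slc27a4 for the kainate genes. The lowest adjusted p among these 18 genes was 0.661 by the edgeR test.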

How the data were processed

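Poly-A RNA of 10 rats was sequenced as single reads of 36 bases. The methods name BWA with the rn4 build and a custom script that counted over Ensembl transcripts, yet the rows are RefSeq RNA records, and this was not settled here. The authors deposited raw counts per record, with no normalization and no pooling. An empty entry and the unmapped reads (median 22.2% of reads) were left out. Symbols came from RefSeq genes of GRCr8, used for names only, and were found for 54.2% of records.

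Rows with a total of at least 44 counts, the 30th percentile, were kept (22431 rows) and compared by quasi-likelihood F tests (edgeR 4.0.16, R 4.3.3, TMM, robust estimation, all 10 rats, Benjamini-Hochberg over all rows). Confidence intervals use the test's standard error and degrees of freedom. Ratios were compared over the 252 splits of the rats with SciPy 1.17.1, after adding 0.5 to each count. Alternatives were other scalings and filters, the exact test of edgeR, DESeq2 1.42.0, voom of limma 3.58.1, a ribosomal covariate, summed rows and leaving out rats. Settings that combine summed rows with another choice were added after seeing the data. Named genes were the 9 members with their rows, in each group of related genes those with an unadjusted p under 0.05 and the 2 with the highest mean CPM, and for each member the 2 most correlated genes with a mean of at least 5 CPM. A few genes that this rule or a marker list would name are not reported here. The members, lists and alternatives were chosen with earlier results of these data known. Rat numbers run from 1 to 10 over both groups and pair no rats, and replicate numbers follow sample order. Each library carries the label of its own rat, so the spread is between rats. The methods name fewer sham rats for this assay than the labels, and the labels were followed. On simulated data for TBI versus sham with 200 of 22431 rows changed, 193 were found at a log2 change of 1, 110 at 0.5 and 0 at 0.3. False calls were 17, 7 and 1 in the same order. The changed rows were drawn only from rows with higher mean counts than any Grik1 row (at most 31.6), so the Grik1 rows are not covered. Figures were drawn with matplotlib 3.10.9.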

Additional observations from a re-analysis of the deposited data

Results flagged for a closer look

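In 36 groups of 5 rats, which cover the 16 rows of the subunit genes and both ratios, 4 held a lone rat whose distance to its neighbour exceeded the 95% limit of Dixon's test, where 1.80 such groups arise by chance. Sham replicate 5 had 168 CPM of the Gria2 main row, above the other sham rats (122 to 134 CPM). TBI replicate 2 had 117 CPM of the same row, below the other TBI rats (130.2 to 133 CPM). TBI replicate 1 had 43.2 CPM of the Gria3 main row, above the other TBI rats (37.6 to 38.5 CPM). Sham replicate 5 also had a log2 ratio of Gria2 to Gria1 of -0.86, above the other sham rats (-1.23 to -1.14), which is not independent of its Gria2 value. This rat is one of the 2 with over 50% of counts on ribosomal RNA, and the part of that share in these values was not tested.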

How the results depend on the processing

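No paired analysis was possible because the labels number the rats 1 to 10 over both groups and no number is shared. The count of subunit main rows past an adjusted p of 0.05 was 0 by the quasi-likelihood test of edgeR and in each of the 23 alternative fits, where the lowest adjusted p was 0.274, and so was the count for the 49 related genes. Over all rows it was 92 with total count scaling, 51 with the exact test without robust estimation, 12 without TBI replicate 3, 5 without sham replicate 3, 3 with DESeq2 and 0 in the other fits. At an unadjusted p under 0.05 the subunit count was 1. It was 0 with total count scaling, 0 with library totals taken outside ribosomal RNA, 2 with voom (Gria4 and Grik2) and 2 with summed rows (Grik1 and Grik2), and from 0 to 2 when each rat was left out. It was 0 without sham replicate 2, TBI replicate 2 or TBI replicate 5, and 2 without TBI replicate 1. For the related genes it was 3, with 6 under either total count scaling, 0 with the ribosomal covariate and 3 to 6 when each rat was left out (6 without TBI replicate 4). The ratio of Gria2 to Gria1 differed by -0.0493 to 0.0981 and that of Grik5 to Grik2 by 0.167 to 0.345 when each rat was left out, where without TBI replicate 1 the exact permutation p of 0.0317 passed 0.05.

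Of the 207 values of subunit main rows under alternatives, 24 changed sign, and of 602 values of isoform rows, summed rows and named related genes, 74 did. With total count scaling, which shifted all rows by about 0.5, the log2 changes became 0.43 (Gria1), 0.46 (Gria2), 0.47 (Gria3), 0.31 (Gria4), 0.44 (Grik1), 0.25 (Grik2), 0.24 (Grik3), 0.43 (Grik4), 0.39 (Grid1), 0.41 (Olfm1), 0.40 (Neto1), 0.51 (Neto2), 0.52 (Porcn), 0.32 (Grip1), 0.36 (Nsf), 0.43 (Dlg4), 0.29 (Sdcbp), 0.42 (Nptx1), 0.44 (Nptxr), 0.43 (NM_001083811 of Gria2), 0.44 (NM_001112742 of Gria3), 0.30 (NM_001113184 of Gria4), 0.33 (NM_001113185 of Gria4) and 0.0878 (NM_017241 of Grik1). For summed rows they were 0.44 (Gria2), 0.45 (Gria3), 0.31 (Gria4), 0.11 (Grik1) and 0.36 (Grik3). With library totals taken outside ribosomal RNA they were 0.0797 (Gria1), 0.0874 (Gria2), 0.11 (Gria3), 0.0418 (Grik1), 0.0912 (Grik4), 0.0364 (Grid1), 0.0446 (Olfm1), 0.0854 (Neto1), 0.15 (Neto2), 0.15 (Porcn), 0.0269 (Nsf), 0.0716 (Dlg4), 0.0887 (Nptx1), 0.11 (Nptxr), 0.0714 (NM_001083811) and 0.0833 (NM_001112742), and for summed rows 0.0797 (Gria2), 0.0967 (Gria3) and 0.0199 (Grik3). With the ribosomal covariate they were 0.0273 (Gria2), 0.0315 (Gria3), 0.12 (Grik1), -0.0092 (Grik5), 0.00209 (Olfm1), -0.0534 (Cpt1c) and 0.0303 (Porcn), and for summed rows 0.00348 (Gria2) and 0.00294 (Gria3). Without the 2 sham rats rich in ribosomal RNA they were 0.00577 (Gria2), 0.00902 (Gria3), 0.0546 (Grik1), 0.00553 (Neto2), -0.0195 (Cpt1c) and 0.0494 (Porcn). Upper-quartile factors gave 0.00488 (Neto2) and 0.00337 (Porcn), no filter gave 0.00655 (Neto2) and 0.0064 (Porcn), and voom gave 0.0286 (Porcn), 0.0118 (Nptx1), 0.0584 (Nptxr) and -0.0126 (NM_181373 of Grik3). When each rat was left out, the values that changed sign ranged from -0.109 to 0.0152 (Gria2), -0.0998 to 0.0171 (Gria3), -0.171 to 0.00653 (Grik1), -0.131 to 0.00767 (Grik4), -0.131 to 0.0431 (Neto1), -0.110 to 0.111 (Neto2), -0.0212 to 0.0601 (Cpt1c), -0.0492 to 0.0694 (Porcn), -0.120 to 0.0659 (Nptxr) and -0.161 to 0.197 (NM_181373), and for sums -0.122 to 0.00640 (Gria2), -0.103 to 0.000427 (Gria3) and -0.290 to 0.0648 (Grik3). Apart from the shift by scaling, their cause was not tested. Grik1 and Grik3 had at most 111 and 283 reads in a library, and the standard error of the summed rows was 0.130 for Grik1 and 0.303 for Grik3, where rats of the same group also differed most.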
